A study of Mus musculus with 2 samples.

Results

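The mRNAs of 8 heterogeneous nuclear ribonucleoproteins (hnRNPs), Hnrnpa1, Hnrnpab, Hnrnpc, Hnrnpd, Hnrnpdl, Hnrnpf, Hnrnpr and Hnrnpul1, were examined in RNA immunoprecipitated with Mov10 from mouse brain. Mov10 is an RNA helicase that binds mRNAs and retroelement RNA. The samples were 1 library of RNA from the Mov10 immunoprecipitation (IP) and 1 library of total input RNA, both from the brains of 28 wild-type C57bl/6 pups pooled at postnatal day 2 (P2). In RNA immunoprecipitation (RIP) the antibody pulls down the protein with whatever RNA is attached, and as no UV cross-linking was used, RNA held indirectly is recovered too. A control IP with an unrelated antibody was not used here. The genes were selected on the peak list itself, as hnRNP genes with a peak, so their having peaks and an excess of IP over input reads is a description and not a test. With 1 library per group there was no replicate check, and all intervals below cover counting error only.

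hnRNPs are abundant RNA-binding proteins that coat transcripts as they leave RNA polymerase and then act in splicing, export, stability and translation. Most bind RNA through the RNA recognition motif (RRM), whose most conserved stretch is called RNP-1, and many carry glycine- and arginine-rich regions beside it. In neurons, several of them travel with mRNAs into axons and dendrites.

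A peak is a stretch of 1 strand of the genome that the authors' caller, RIPSeeker, listed when run for the IP against the input. Not every listed peak has more IP than input reads, and the lowest ratio of an exonic peak, defined below, was 0.00953. The peaks of these genes lie on the strand opposite the gene, as did 639 of 663 chromosome peaks over exons of protein-coding genes, with 6 on the gene's own strand only and 18 over exons of both strands. A peak was counted for a gene when it shared at least 1 base with an exon opposite to it. By this rule 11 of the 2296 listed peaks belonged to the 8 genes, with 3 in Hnrnpr, 2 in Hnrnpa1 and 1 in each of the 6 others. These 11 peaks held 25827 IP reads and 1118 input reads. The comparison set was the 657 peaks on chromosomes that lie over exons of protein-coding genes, called exonic peaks below. The enrichment ratio is the IP reads divided by the input reads of a peak, each first divided by the aligned reads of its library.

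Of 11 brain marker genes, 5 had a peak over an exon, namely Tubb3, Map2, Snap25, Nrgn and Olig1, and all 5 had a peak past an adjusted p of 0.05. Gap43, Dcx, Stmn2, Gfap, Slc1a3 and Mbp had none. Snap25, a synaptic vesicle fusion protein, had 4296 IP reads and 65 input reads at its strongest peak by ratio (55.1, 95% interval 43.1 to 71.5). At its highest peak, Map2, a dendritic microtubule protein, had a ratio of 18.0 (16.6 to 19.5) and Tubb3, neuronal tubulin, one of 8.83 (7.93 to 9.84). Nrgn, a postsynaptic calmodulin-binding protein, had 20339 IP and 146 input reads (116, 98.7 to 138), and Olig1, an oligodendrocyte lineage factor, 582 and 41 (11.8, 8.62 to 16.7). None of the 3 blood, 2 liver and 2 muscle markers had one, and the list holds no peak at all on the strand that would carry Alas2 (blood), Apoa1 (liver) or Slc1a3 (brain). A peak is called for IP over input and does not measure expression, so a marker with no peak says nothing about whether its cells were in the sample.

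All sequences here are from GENCODE M21 transcripts (GRCm38/mm10), written 5′ to 3′ on the RNA strand with T for U. The first set shows the coding bases of the peaks in Hnrnpr, the most enriched gene, in Hnrnpul1, Hnrnpc and Hnrnpf. Capitals mark GGGA, the motif of G-rich RNA bound by hnRNP F.
Hnrnpr peak 1, chr4:136332398-136332585: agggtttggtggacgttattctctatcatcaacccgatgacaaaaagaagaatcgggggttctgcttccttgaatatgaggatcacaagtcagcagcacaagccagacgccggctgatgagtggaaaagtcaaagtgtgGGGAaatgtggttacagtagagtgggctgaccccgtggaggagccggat
Hnrnpr peak 2, chr4:136336298-136336447: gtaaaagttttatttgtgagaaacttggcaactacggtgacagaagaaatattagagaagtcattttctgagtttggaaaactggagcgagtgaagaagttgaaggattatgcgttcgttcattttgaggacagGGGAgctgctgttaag
Hnrnpr peak 3, chr4:136339556-136339760: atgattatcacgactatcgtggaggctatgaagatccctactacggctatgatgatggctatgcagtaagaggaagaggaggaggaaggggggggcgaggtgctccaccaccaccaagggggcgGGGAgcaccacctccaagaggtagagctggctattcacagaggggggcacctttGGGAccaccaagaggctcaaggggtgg
Hnrnpul1, chr7:25724601-25724800: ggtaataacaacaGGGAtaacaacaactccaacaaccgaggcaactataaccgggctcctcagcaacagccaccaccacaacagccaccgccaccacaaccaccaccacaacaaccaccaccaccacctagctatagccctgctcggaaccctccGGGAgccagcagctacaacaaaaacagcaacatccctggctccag
Hnrnpc, chr14:52084201-52084355: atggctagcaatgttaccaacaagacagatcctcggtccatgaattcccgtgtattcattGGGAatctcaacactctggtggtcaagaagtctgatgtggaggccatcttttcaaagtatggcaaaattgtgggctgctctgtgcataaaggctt
Hnrnpf, chr6:117924001-117924200: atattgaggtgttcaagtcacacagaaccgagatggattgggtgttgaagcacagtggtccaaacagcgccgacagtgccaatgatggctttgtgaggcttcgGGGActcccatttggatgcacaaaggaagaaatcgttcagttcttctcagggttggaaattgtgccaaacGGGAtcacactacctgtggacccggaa

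Hnrnpr, a relative of Syncrip that binds beta-actin mRNA and is found in motor axons, had the highest ratios of the family. Its peak 1 (exon 8 of 11) had 1547 IP reads and 34 input reads, a ratio of 37.9 (27.0 to 55.0). Its peak 2 (exon 9) had 1779 and 38, a ratio of 39.0 (28.3 to 55.3). Its peak 3 (exon 11, the last) had 1759 and 44, a ratio of 33.3 (24.7 to 46.0). The 3 peaks did not differ beyond counting error, since the 3 ratios of one to another were 1.03 (0.625 to 1.69) for peak 2 over 1, 0.879 (0.542 to 1.41) for peak 3 over 1 and 0.854 (0.536 to 1.36) for peak 3 over 2. In transcript Hnrnpr-207 they cover codons 271 to 333, 340 to 389 and 476 to 544 of 632. In the stretch printed for peak 3, glycine takes 19 of 67 whole codons (28.4%) and arginine 12 (17.9%), the glycine- and arginine-rich region typical of hnRNPs. Of the 21452 bases annotated for this transcript, 2.53% lie in a peak, and its last exon alone runs from base 1424 to the end.

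Hnrnpul1, which is related to hnRNP U and acts in the nucleus, held the most reads of any single hnRNP peak. It had 4813 IP reads and 157 input reads in exon 13 of 15, codons 676 to 742 of 859, and a ratio of 25.6 (21.8 to 30.2). This was the second gene in order of ratio, and Hnrnpr was 1.43 times higher (1.11 to 1.84). The peak encodes a low-complexity stretch in which proline takes 20 of 66 codons (30.3%) and asparagine 14 (21.2%).

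Hnrnpc, which binds uridine tracts in nascent transcripts, had far fewer reads, 995 in the IP and 35 in the input, and a ratio of 23.7 (16.9 to 34.2). Its peak lies in exon 3 of 9 of Hnrnpc-209 and covers 36 bases before the start codon and codons 1 to 52 of 306.

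Hnrnpd (AUF1) and Hnrnpdl are paralogs that bind AU-rich elements, and Hnrnpab is a further relative. Their encoded proteins, translated from the GENCODE coding sequences and aligned end to end, share 63.1% of the residues of the shorter chain for Hnrnpd and Hnrnpdl, 67.4% for Hnrnpab and Hnrnpd, and 60.4% for Hnrnpab and Hnrnpdl. The 2 genes Hnrnpd and Hnrnpdl lie 54638 bases apart on the minus strand of chromosome 5, and in both the peak is in the first exon and reaches its 3′ end. The end of these exons is shown because the peaks cover the same place in the paralogs, with capitals at the bases that are identical in both.
Hnrnpd, chr5:99978392-99978438: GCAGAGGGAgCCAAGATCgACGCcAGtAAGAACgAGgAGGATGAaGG
Hnrnpdl, chr5:100038720-100038766: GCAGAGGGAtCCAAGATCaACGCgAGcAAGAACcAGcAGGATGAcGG
Of these 47 bases, 40 are identical (85.1%).

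The paralogs differed in enrichment. Hnrnpd had 3168 IP and 116 input reads, a ratio of 22.8 (18.9 to 27.6), in exon 1 of 9. Hnrnpdl had 3731 and 299, a ratio of 10.4 (9.24 to 11.7), in exon 1 of 8. Hnrnpd was thus 2.19 times higher (1.75 to 2.75), and its lower input count goes with this: in reads per kilobase of peak scaled to the aligned reads of the library (RPKM), the input was 6.71 for Hnrnpd and 17.3 for Hnrnpdl, and the IP 153 and 180. Hnrnpdl had the lowest ratio and the highest input level of the 11 peaks. In pooled whole brains, a lower input level from fewer expressing cells and one from less RNA per cell cannot be told apart. In the first exon of Hnrnpd an antisense transcript, Gm17092, lies on the same strand as the peak and covers 187 of its bases, so its reads cannot be told apart from those of Hnrnpd except by the strand rule above. Hnrnpd and Hnrnpdl have no near-identical copy elsewhere by the rule given below.

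Hnrnpab, which takes part in mRNA localisation in neurons, had the only peak in a 3′ untranslated region (3′ UTR). It spans 400 bases of exon 7 of 7 (chr11:51601001-51601400), held 3508 IP and 155 input reads, and had a ratio of 18.9 (16.1 to 22.3). On the peak's own strand lies Phykpl, a pyridoxal phosphate-dependent enzyme, whose exons share 287 of the 400 bases, so the peak is Hnrnpab's only by the strand rule. Of the motifs searched, this peak alone held ATTTA (AU-rich element, bound by hnRNP D), TAGGG (hnRNP A1) or TTTTT (hnRNP C). The sites are given here with 10 bases on each side and the motif in capitals. Their distances are counted from the last base of the last amino acid codon, so they include the stop codon itself.
ATTTA, 78 bases after the stop codon, chr11:51601319-51601343: tatgtaccaaATTTAacttggcaaa
ATTTA, 121 bases after it, chr11:51601276-51601300: tgtgcatcttATTTAaaatttcccc
TAGGG, 214 bases after it, chr11:51601183-51601207: agagcggcacTAGGGggctgatttt
TTTTT, 348 bases after it, chr11:51601049-51601073: cagtgtcaccTTTTTcaccttttaa

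Hnrnpa1, a splicing repressor with a pair of RRMs and a glycine-rich tail, had peaks that differed from each other. Peak 1 (chr15:103241896-103242100, exon 4 of 11, codons 94 to 159 of 373) had 2009 IP and 133 input reads, a ratio of 12.6 (10.6 to 15.1). Peak 2 (chr15:103243741-103243945) had 2007 and 78, a ratio of 21.4 (17.1 to 27.3), which was 1.70 times higher (1.27 to 2.30). The IP counts were nearly equal and the input counts were not. Peak 2 is also the one with the least exon, 40 bases of exon 9 and 165 bases outside any exon of the gene.

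Hnrnpf, which binds G tracts through a variant of the RRM, had the fewest reads, 511 in the IP and 29 in the input, and a ratio of 14.7 (10.1 to 22.2). Its peak lies in the last exon, codons 82 to 148 of 415. It was the only one of the 11 with an adjusted p above 0 in the authors' list, where it stands at 2.43e-150, while the other 10 are listed at 0. This is not particular to Hnrnpf, since 0 of the 139 listed peaks on its strand of chromosome 6 had a p of 0.

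With the reads of each gene's peaks summed, the order of the ratios was Hnrnpr 36.5 (30.4 to 44.3), Hnrnpul1 25.6, Hnrnpc 23.7, Hnrnpd 22.8, Hnrnpab 18.9, Hnrnpa1 15.9 (13.8 to 18.3), Hnrnpf 14.7 and Hnrnpdl 10.4. Of the 7 neighbours in this order, 1 pair, Hnrnpr and Hnrnpul1, had an interval of the difference that excludes 1. The ends of the order differed 3.51-fold (2.81 to 4.41). Because both library totals enter every ratio alike, dividing by uniquely aligned in place of aligned reads multiplies each ratio by 0.613 and leaves the order as it was. The genes lie on different chromosome strands, and the caller was run strand by strand. How far the read level of a peak, high at Hnrnpul1 and low at Hnrnpc and Hnrnpf, follows its strand was not tested.

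**Figure D1:**
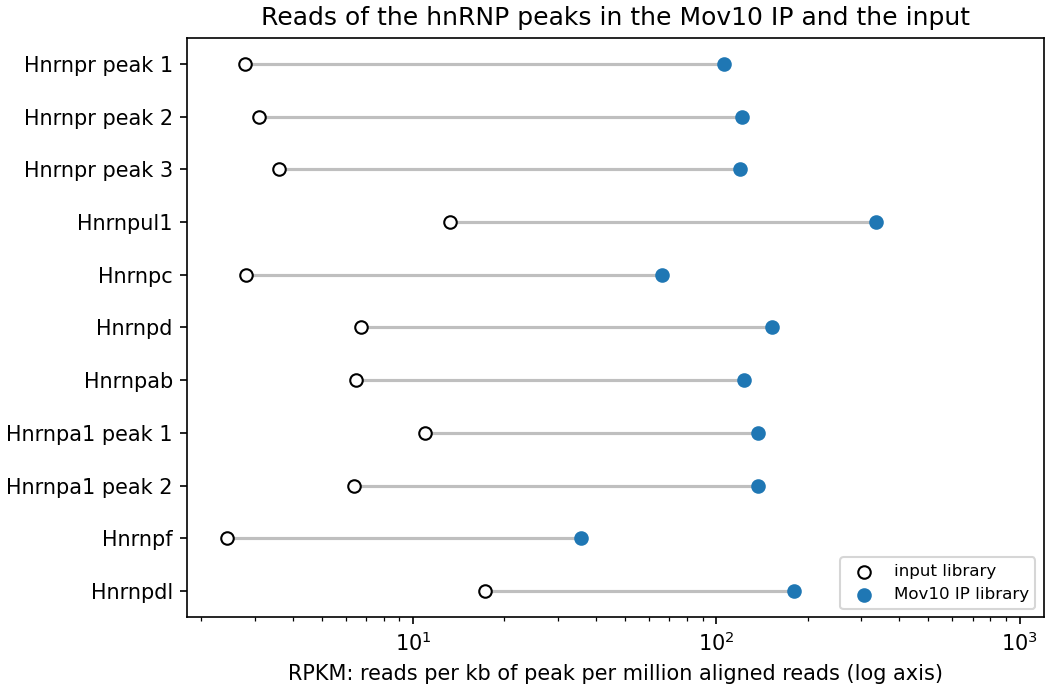
Reads per kilobase of peak scaled to aligned reads (RPKM, log axis) at each of the 11 hnRNP peaks, open circles for the input and filled circles for the Mov10 IP, genes in order of ratio. The input runs from 2.43 at Hnrnpf to 17.3 at Hnrnpdl and the IP from 35.7 at Hnrnpf to 336 at Hnrnpul1.

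The hnRNP peaks passed the authors' adjusted p of 0.05 at 11 of 11, against 43.4% of all 2296 peaks and 89.8% of the 657 exonic peaks. A ratio of at least 10 was reached by 11 of 11, against 29.1% of all peaks and 71.1% of exonic peaks. Because the genes were chosen from peaks in this contrast, nothing is read from these shares. Of the peak ratios, 9 of 11 lay above the median of exonic peaks, which was 14.6 (quartiles 9.13 to 22.7), and the hnRNP median was 22.8 (10.4 to 39.0 over the 11 peaks). The intervals of 8 peaks lay wholly above 14.6 and that of 1, Hnrnpdl, wholly below it. The peaks of Hnrnpr exceeded 85.8% to 89.6% of the exonic peaks, and that of Hnrnpdl 30.7%. With uniquely aligned reads as depth, 8 of 11 reached 10, against 43.1% of exonic peaks.

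**Figure D2:**
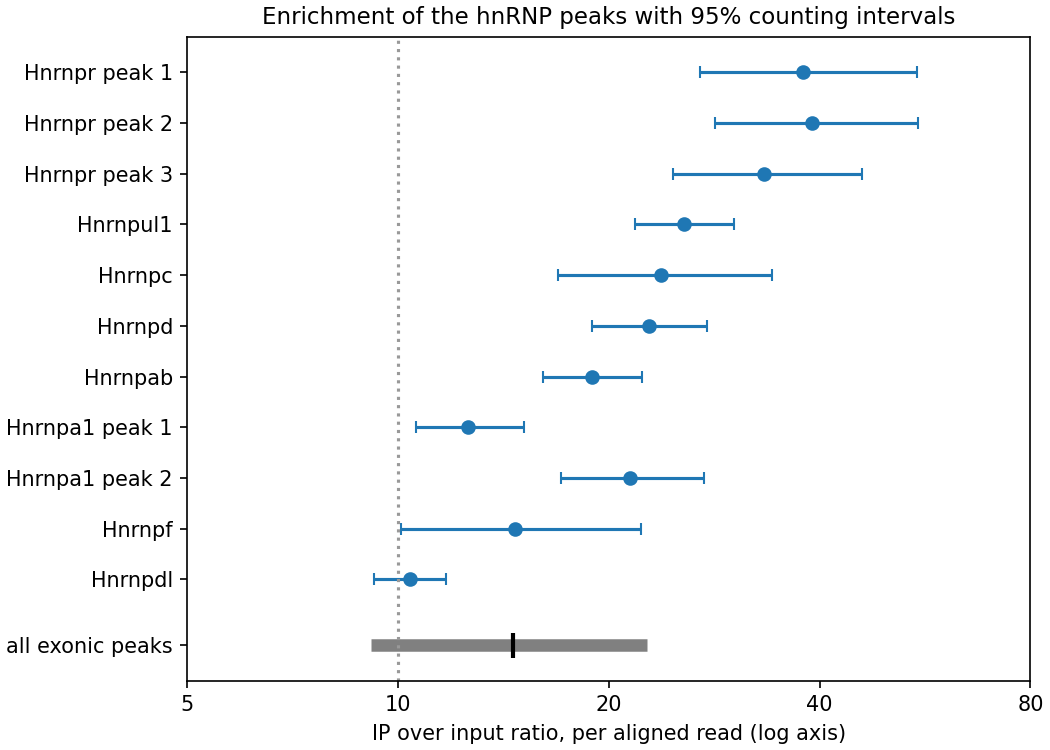
Ratio of IP over input per aligned read (log axis) with 95% counting intervals at the 11 hnRNP peaks. The grey bar spans the quartiles of the 657 exonic peaks with the median as a tick (14.6), and the dotted line marks 10; Hnrnpdl (10.4) is closest to it and Hnrnpr peak 2 (39.0) farthest.

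The empirical false discovery rate (eFDR), which compares the calls with those made after swapping IP and input, passed 0.05 at 2 of 11 peaks, Hnrnpc (0.0263) and Hnrnpf (6.83e-151), against 23.4% of all peaks and 37.7% of exonic peaks. The 9 others ranged from 0.0645 in Hnrnpa1 to 0.875 in Hnrnpd and Hnrnpdl. It was the same for all peaks with a p of 0 on a strand of a chromosome (1 value for each of the 6 such strands that carry a peak of these genes), so it does not rank these peaks within a strand. For Hnrnpd and Hnrnpdl it is the value shared by all 16 such peaks of that strand.

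Each peak was placed by the part of the mRNA that held most of its exonic bases. By this, 10 of the 11 peaks fell in coding sequence (90.9%), against 57.7% of the exonic peaks. Hnrnpab fell in the 3′ UTR (31.4% of exonic peaks) and none in a 5′ UTR (10.7%). Bases outside exons do not enter this placing, and Hnrnpa1 peak 2 has 165 of them beside 40 exonic bases. The peaks are whole bins of the caller's grid, of 200 to 290 bases by chromosome strand, 1 bin each but for Hnrnpab with 2 bins of 200. Their edges are therefore those of the grid, and 4 of the 11 lie wholly within exons of the transcripts used. Strict matches to the RNP-1 consensus occur at 7 places in the translated sequences of 6 of the 8 genes, none in Hnrnpf or Hnrnpul1, and 1 of the 7 lies whole within a peak, at codons 146 to 153 of Hnrnpa1 in peak 1. The peak of Hnrnpc ends within its own match, at codons 50 to 57. Stretches that depart from the strict consensus were not searched for, so the other peaks, those of Hnrnpr included, are not shown to lack RNP-1.

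**Figure D3:**
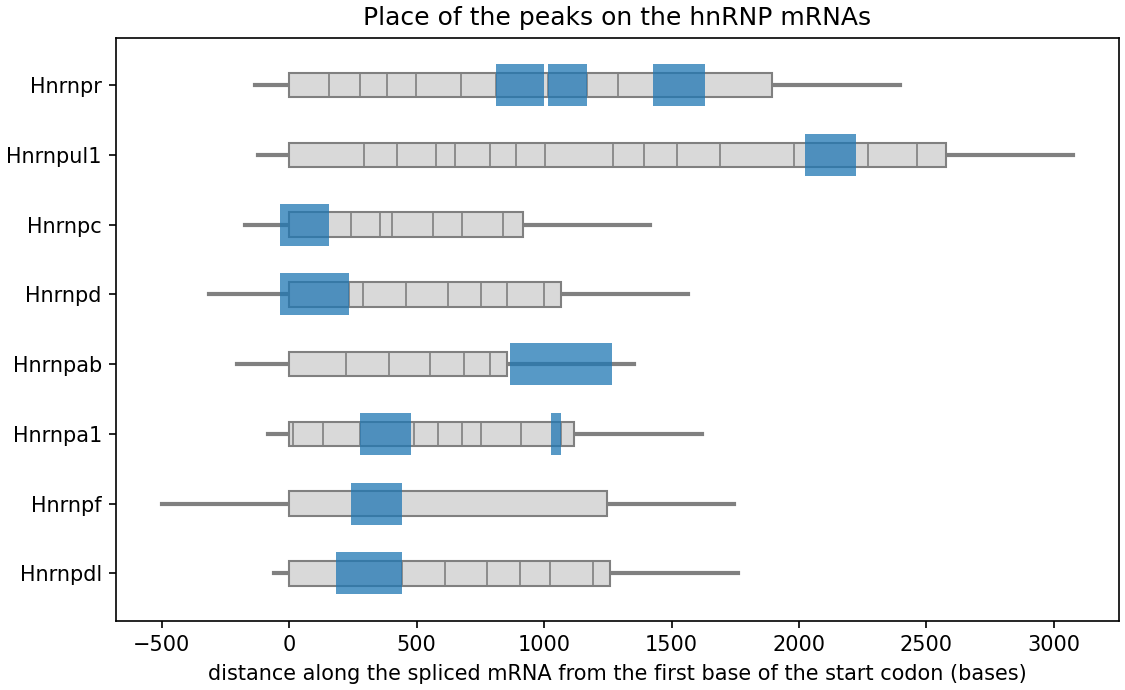
Place of the peaks (blue) on the spliced mRNAs, in bases from the start codon, with the coding sequence as grey boxes, exon joins as ticks and UTRs as lines drawn to at most 500 bases. Peaks of Hnrnpc and Hnrnpd cover the start codon, those of Hnrnpr run from codon 271 to codon 544 of 632, that of Hnrnpul1 lies at codons 676 to 742 of 859 and that of Hnrnpab beyond the stop codon.

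The exonic parts of 10 peaks of at least 100 bases ranged in GC content from 39.3% at Hnrnpr peak 2 to 75.5% at Hnrnpd, with a median of 50.3% against 54.0% in 595 exonic peaks. The minimum free energy of folding predicted by RNAfold ran from -41.7 kcal/mol per 100 bases at Hnrnpd to -16.1 at Hnrnpul1, and both medians were -27.0. The value of Hnrnpul1 is weak for its GC content of 55.5%: of 123 exonic peaks within 2.5 points of it, 5 including its own folded as weakly. GGGA occurred in 9 of 11 hnRNP peaks (81.8%), all but Hnrnpab and Hnrnpa1 peak 2, and in 54.2% of exonic peaks. The AU-rich element occurred in 1 hnRNP peak (9.09%) and in 14.0% of exonic peaks. The hnRNP A1 motif occurred in 1 against 8.07%, and the hnRNP C motif in 1 against 16.7%. The Pumilio site TGTANATA occurred in 0 of the 11, against 1.98%. The search covered the RNA strand of the exonic part, whose median length was 200 bases in both sets, and a match is not a bound site.

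**Figure D4:**
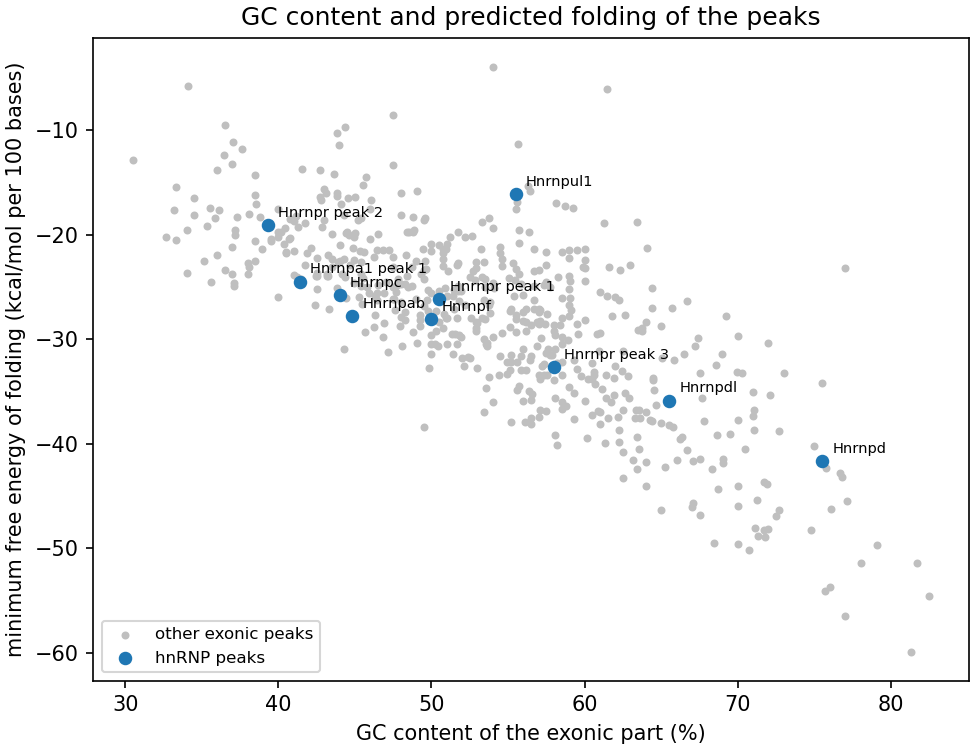
GC content (%) and predicted minimum free energy (kcal/mol per 100 bases) of 10 hnRNP peaks (blue) and the other exonic peaks (grey). The hnRNP peaks follow the trend of the grey points from Hnrnpr peak 2 to Hnrnpd, and Hnrnpul1 (-16.1) lies near its upper edge.

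Copies of these mRNAs elsewhere in the genome could share their reads, since the authors kept reads with several alignments and assigned each to 1 place. Of the 11 peaks, 5 in 4 genes matched another GENCODE gene with an identity of at least 95% along 100 or more bases. Hnrnpa1 peak 1 matched 9 genes and Hnrnpf 8, nearly all processed pseudogenes, Hnrnpc matched 1 (Gm12696), and peaks 1 and 2 of Hnrnpr both matched Gm6159. Peak 3 of Hnrnpr fell below the limit, with an identity of 94.6% to Gm6159 along 205 bases. The exonic 40 bases of Hnrnpa1 peak 2 match 11 genes over their whole length. For Hnrnpa1, 2 of the copies carry peaks of their own. Gm7729, identical to the 198 exonic bases of peak 1, has peaks with 1599 and 1630 IP reads and 115 and 106 input reads (ratios 11.6, 9.59 to 14.1, and 12.8, 10.5 to 15.8), against 12.6 at Hnrnpa1 peak 1. Gm5461, 99.0% identical, has 1440 IP reads and no input read, a ratio of 400 with the floor of 3 reads in place of 0 and a lower limit of 325 by its exact interval. Peaks anywhere along a copy were taken, and whether they lie over the stretch that matches Hnrnpa1 peak 1 was not checked. How reads were divided between Hnrnpa1 and these copies was not tested.

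Other genes of the same functions were looked up in the list analysed here, and a gene with no peak in it is not shown to be unbound. The share of all genes with a peak was not computed, so the counts below are not read as low or high. Of 27 other hnRNP genes and relatives, 2 had a peak over an exon. For 11 of the 27 the list holds no peak at all on the strand opposite the gene, so nothing could be listed there. Pcbp2, a KH-domain protein that binds C-rich RNA, had 3 peaks in its coding sequence with 1765, 2359 and 2420 IP reads against 87, 121 and 103 input reads, at ratios of 16.9 (13.6 to 21.2), 16.3 (13.5 to 19.7) and 19.6 (16.1 to 24.1), within the range of the 11 peaks above. Rbmxl1, an intronless relative of Rbmx, had 2159 and 97 reads, a ratio of 18.6 (15.1 to 23.0), and is listed with an adjusted p of 1. For 11 of 13 SR proteins, the splicing factors that often oppose hnRNPs, the list holds peaks of any kind on the strand opposite the gene. The 1 of the 13 with a peak over an exon was Srsf4, with 1976 and 24 reads and a ratio of 68.6 (46.0 to 107), above all 11 hnRNP peaks. None of the 7 genes for import receptors and arginine methyltransferases of hnRNPs had one, with peaks of any kind on the needed strand for 3 of them.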

How the data were processed

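RNA from Mov10 IP and input of P2 brain was sequenced by the authors, 1 library each. Base calls were made with bcl2fastq 2.17.1.14 and reads aligned with TopHat2 2.1.1 to unmasked mm10, with up to 2000 alignments per read (submitters' notes and the study's methods). The authors ran RIPSeeker on each strand, IP against input, first on unique hits and then with reads of several hits assigned to 1 place. The deposited table gives for each peak whole read counts not scaled to depth, the same per kb, a score, an eFDR and a p-value with its adjusted form, used as deposited. The study's methods give 71522027 aligned IP reads (57005129 unique) and 59620379 aligned input reads (29124706 unique).

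Ratios were computed from the deposited counts and aligned reads, with exact conditional binomial intervals at 95% (scipy 1.17.1, numpy 2.4.6) and 3 reads in place of an input of 0. The same interval for 2 ratios is that of a conditional odds ratio. PCR reads are not independent molecules. Exons were those of GENCODE M21. BLAST+ 2.17.0 found copies, at 95% identity over 100 bases, folding used ViennaRNA 2.7.2, proteins were aligned with Biopython 1.88 and plots drawn with matplotlib 3.10.9 under Python 3.11.15. The transcript for each gene was the principal coding transcript with the most peak bases. The interval script was checked on simulated data.

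The members, lists and motifs were chosen with earlier results of these data known. All 8 genes with each peak were named, and of the other lists every gene with a peak over an exon. Alternatives were a stricter adjusted p, the eFDR, other depths, pseudocount, overlap, folds and leaving out copies. The plan was to use GENCODE and RefSeq exons together; RefSeq exons were not used here.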

Additional observations from a re-analysis of the deposited data

How the results depend on the processing

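Calling peaks by an eFDR of 0.05 passed 2 of the 11; a stricter adjusted p of 0.01 left 11. With a fold of 20 in place of 10, 7 peaks passed (32.3% of exonic peaks). With reads within the listed peaks as depth, chosen after seeing the data for this count, 7 peaks reached 10 (29.4% of exonic peaks), and the median ratio fell to 10.8; with uniquely aligned reads it was 14.0. These follow from the construction, since each ratio is multiplied by 0.474 or 0.613. Leaving out peaks with copies, also added for the count, left 6 peaks with a median of 22.1. These still include Hnrnpa1 peak 2, whose 40 exonic bases match 11 genes, and Hnrnpr peak 3, 94.6% identical to Gm6159. The alternative therefore does not remove every peak that may share reads. An overlap of at least 50% left 10 peaks, and a minimum of 10 input reads left 11. With each gene counted once the median was 20.8, and with a pseudocount of 1 it was 22.6. Per gene, uniquely aligned reads moved 8 of 8 ratios out of their intervals, the peak with the most IP reads moved 1 of 8 (Hnrnpa1, 12.6), and a pseudocount of 1 moved 0. No paired analysis was possible because each group has 1 library, and no library could be left out. The alternative with exons of RefSeq alone was not run, and exons of GENCODE alone were the setting used throughout, so they gave no separate value. Depth limits the values most at Hnrnpf, with 29 input reads.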
